A study of Mus musculus with 6 samples.

Results

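Guanylate-binding proteins (GBPs) and immunity-related GTPases (IRGs) are 2 families of interferon-inducible GTPases of host defence. Measured here were 7 GBP genes (Gbp2, Gbp3, Gbp4, Gbp5, Gbp7, Gbp8 and Gbp9) and 3 IRG genes (Irgm1, Irgm2 and Igtp). They were listed by name as rows of the deposited table of raw counts, with earlier results of these data known. These 10 genes were 10 of the 25751 genes of the table, and all 10 were among the 14626 genes that passed the filter on low counts. The table holds RNA-seq counts of primary myeloid cells of wild-type (WT) mice at 24 h, from 3 control and 3 treated libraries. The treatment was trimethylamine N-oxide (TMAO), a metabolite that the liver makes from trimethylamine released by gut bacteria. The study asked what TMAO does to gene expression in these cells. The labels give no dose, tissue of origin or age of the animals, and no genotype other than WT for either group. The sample descriptions name the controls Control and the treated samples T-BMDM, without explaining the difference in name. If the cells of the groups were obtained in different ways, that cannot be told apart from the treatment. Nor do the labels say whether the 3 libraries of a group are separate cultures or animals, so a p-value here weighs a difference only against the spread of these libraries, which could be technical.

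GBPs are large GTPases that assemble on the membranes of vacuoles and on bacteria in the cytosol, where they can break the membrane open and recruit inflammasome components. IRGs fall into effector proteins that load onto pathogen vacuoles and regulatory Irgm proteins (Irgm1, Irgm2 and Igtp, also called Irgm3) that sit on the cell's own membranes and hold the effectors inactive there. In macrophages both families are known as targets of interferon-gamma, through gamma-activated sites (GAS) and interferon-stimulated response elements (ISRE) upstream of their genes, and many members also respond to type I interferon.

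Libraries held 37759007 to 41735109 counts. Across genes, log2 values correlated at 0.983 to 0.990 within a group and at 0.897 to 0.930 between groups. With TMAO, 65.7% of the genes tested changed, 33% called higher and 32.7% lower, so a call by itself sets no gene apart. Macrophage genes such as Lyz2 and Csf1r were abundant in all 6 libraries: of 11 macrophage markers 3 were called higher and 5 lower, and their summed level ran from 43389 to 48081 CPM (counts scaled by library size) in controls and from 41455 to 50301 with TMAO. Most of that sum is Lyz2, which was not called (log2 fold change 0.01). Mertk (-3.31), Fcgr1 (-2.07) and Adgre1 (-1.70), all of macrophage identity or function, fell, and the lipopolysaccharide co-receptor Cd14 (2.84) rose. Of 19 neutrophil and precursor markers 16 were called higher and 2 lower, and their sum went from 491 to 538 CPM in controls to 4582 to 5845 CPM with TMAO. The granule gene Mpo had 5 counts over the 3 control libraries and 18028 over the 3 TMAO libraries. All 8 monocyte markers were called higher, with sums of 217 to 276 and 1080 to 1139 CPM. Dendritic cell markers summed to 58.5 to 60.3 CPM in controls and to 31.6 to 36.3 with TMAO, with 5 of 7 tested called higher and 1 lower. That 1 was Itgax, which makes up most of the sum and went from 56.9 to 23.1 CPM. Of 11 T and NK cell markers in the table only Cd4 and Nkg7 passed the filter on low counts. Cd3d, Cd3g, Trac, Nkg7, Ncr1 and Prf1 had no counts in the controls, and this list summed to 10.9 to 13.1 CPM in controls and 4.10 to 5.89 with TMAO. The control sum is nearly all Cd4, which fell from 11.6 to 2.53 CPM, while Nkg7 went from 0 to 224 counts over the 3 libraries of a group and was called higher. The part of these other cell types in the results below was not tested, and in bulk samples fewer cells of a type and less RNA per cell cannot be told apart.

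The upstream sequences of the members show where the interferon-response letters lie, so those of the 7 members with a start site in the RefSeq table (GRCm38.p6, mouse) are given first. Gbp4, Gbp8 and Gbp9 had no entry there. Searched on both strands were the GAS, TTCNNNGAA, the ISRE core, GAAANNGAAA, and the NF-kB consensus, over the 250 bases before each start. Stretches run 5′ to 3′ on the gene's strand, with matches in capitals. They start 250 bases before the start site and end there or before the first base annotated as untranslated region (UTR). Gbp2 is the exception: its match ends at or past that base, and 30 bases around the match are given. The 4 GBPs come from chromosome 3, plus strand.
Gbp2: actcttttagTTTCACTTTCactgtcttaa
Gbp3: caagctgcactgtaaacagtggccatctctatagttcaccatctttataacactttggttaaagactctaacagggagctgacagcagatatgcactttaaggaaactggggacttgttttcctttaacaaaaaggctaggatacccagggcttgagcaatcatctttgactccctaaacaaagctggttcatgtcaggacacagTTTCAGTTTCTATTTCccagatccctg
Gbp5: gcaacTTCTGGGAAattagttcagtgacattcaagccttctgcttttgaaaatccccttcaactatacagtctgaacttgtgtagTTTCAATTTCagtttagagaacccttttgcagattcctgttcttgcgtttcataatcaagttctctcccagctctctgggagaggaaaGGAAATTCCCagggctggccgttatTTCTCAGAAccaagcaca
Gbp7: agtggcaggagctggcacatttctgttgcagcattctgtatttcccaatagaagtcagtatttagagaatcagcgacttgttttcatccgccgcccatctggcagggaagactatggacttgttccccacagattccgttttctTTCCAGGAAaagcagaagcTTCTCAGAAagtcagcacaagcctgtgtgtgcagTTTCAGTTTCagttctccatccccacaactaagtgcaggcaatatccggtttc
These lie at chr3:142620594-142620623, chr3:142559794-142560025, chr3:142496684-142496899 and chr3:142530086-142530335. The ISRE core, read here on the opposite strand as TTTC, 2 bases and TTTC, was found once in Gbp2, Gbp5 and Gbp7 and as an overlapping pair in Gbp3. Gbp5, the GBP with the clearest rise, and Gbp7, which lies next to it and fell, each held 2 GAS matches. Gbp5 alone of the 7 members held a match to the NF-kB consensus, GGAAATTCCC, from 77 to 68 bases before the start.

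The 3 IRG members come from chromosome 11, Irgm1 on the minus strand and the others on the plus strand.
Irgm1: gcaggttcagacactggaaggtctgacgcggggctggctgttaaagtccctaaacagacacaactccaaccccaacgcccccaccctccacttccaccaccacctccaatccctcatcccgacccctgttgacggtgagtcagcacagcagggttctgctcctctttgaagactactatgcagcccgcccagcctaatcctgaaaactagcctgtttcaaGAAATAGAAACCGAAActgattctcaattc
Irgm2: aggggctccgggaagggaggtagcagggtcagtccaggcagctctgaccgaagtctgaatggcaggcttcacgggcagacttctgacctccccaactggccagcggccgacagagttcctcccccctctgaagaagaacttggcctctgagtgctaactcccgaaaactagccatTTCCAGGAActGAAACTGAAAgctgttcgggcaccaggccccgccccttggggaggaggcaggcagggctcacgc
Igtp: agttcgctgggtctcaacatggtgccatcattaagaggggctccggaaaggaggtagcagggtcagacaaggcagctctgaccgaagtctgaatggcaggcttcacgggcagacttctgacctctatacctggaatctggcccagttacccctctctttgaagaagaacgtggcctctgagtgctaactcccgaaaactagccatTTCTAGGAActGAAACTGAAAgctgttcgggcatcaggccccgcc
These lie at chr11:48871421-48871670, chr11:58214727-58214976 and chr11:58199306-58199555. All 3 held the ISRE core on the gene's own strand, Irgm1 as an overlapping pair of matches. In Irgm2 and Igtp a GAS stood 2 bases ahead of the ISRE core. An ISRE core was thus found in 7 of 7 members with a start, whether they rose, fell or were not called, and in 3.46% of the 27025 genes of the table. Gbp3 has a second start in the table, and no match was found before it. A GAS was found in 4 of the 7 members and in 8.13% of genes, the NF-kB consensus in 1 member and in 8.23% of genes, and ISRE and GAS together in 0.40% of genes. These matches are letters in a window and not evidence of binding.

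**Figure D1:**
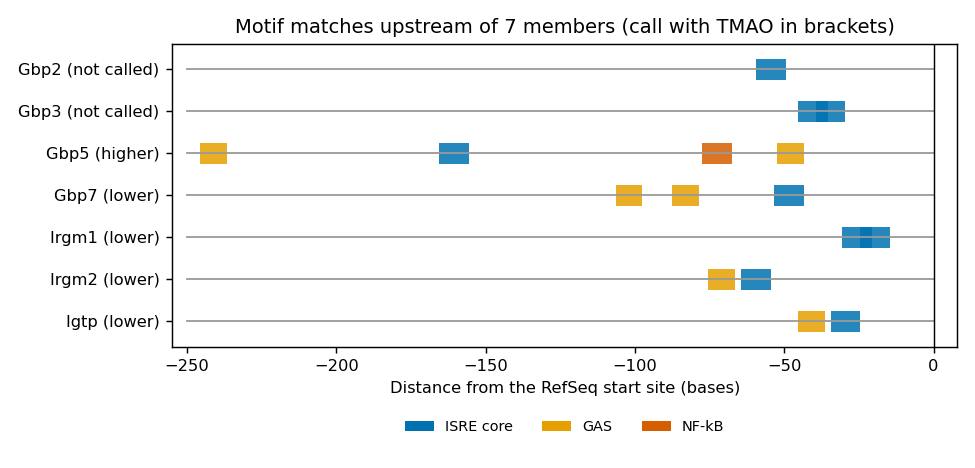
Position of each motif match in the 250 bases before the RefSeq start site of 7 members (x axis, distance from the start in bases), coloured by motif, with the call of each gene in brackets. Each member has an ISRE core, and Gbp5 is the one with an NF-kB match.

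Of the 10 members 2 were called higher with TMAO, beside 33% of all genes tested, and 5 were called lower, beside 32.7%. The members called higher were both GBPs, Gbp5 and Gbp8. Those called lower were 2 GBPs, Gbp7 and Gbp9, and all 3 IRGs. Gbp2, Gbp3 and Gbp4 did not pass the test. CPM ranges of the 2 groups did not overlap for 2 members that were higher, beside 35.6% of genes tested, and for 6 that were lower, beside 35.4%; the sixth was Gbp4. The median log2 fold change was -0.01 over the 7 GBPs, -1.71 over the 3 IRGs and 0.01 over all genes tested.

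Gbp2 (ENSMUSG00000028270), a prenylated GBP that is recruited to bacteria and to parasite vacuoles, was the most abundant GBP per length. Its CPM values were 75.6, 65.3 and 53.3 in controls 1, 2 and 3 and 62.6, 65.1 and 64.7 with TMAO. The TMAO libraries lay close together inside the range of the controls. Its log2 fold change was -0.01 (SE 0.12) with an edgeR adjusted p of 0.929 (quasi-likelihood F test, Benjamini-Hochberg over all genes tested, as for every adjusted p below).

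Gbp3 (ENSMUSG00000028268), a neighbour of Gbp2 in the chromosome 3 cluster, also did not pass the test. It measured 33.1, 28.9 and 24.0 CPM in controls and 33.8, 34.6 and 27.1 CPM with TMAO, so that the groups overlapped, and the log2 fold change was 0.15 (SE 0.14, edgeR adjusted p = 0.347).

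Gbp5 (ENSMUSG00000105504), a GBP known for promoting NLRP3 inflammasome assembly, rose. The controls stood at 14.8, 11.5 and 10.3 CPM and the TMAO libraries at 36.5, 24.5 and 28.2 CPM. Every TMAO library lay above every control, with TMAO library 1 the highest. The mean went from 12.2 ± 2.30 to 29.7 ± 6.19 CPM (SD, n = 3 libraries each), 2.44-fold higher, with a log2 fold change of 1.29 (SE 0.17, edgeR adjusted p = 9.18e-05). Of all genes tested, 88.6% had a lower log2 fold change than Gbp5.

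Gbp7 (ENSMUSG00000040253), also linked to vacuole targeting and to NADPH oxidase assembly, fell. It measured 24.9, 20.1 and 20.1 CPM in controls and 5.35, 5.12 and 3.73 CPM with TMAO. The groups were far apart, with every TMAO library below every control. The mean went from 21.7 ± 2.76 to 4.73 ± 0.876 CPM (SD, n = 3), 4.58-fold lower, and the log2 fold change was -2.20 (SE 0.16, edgeR adjusted p = 1.53e-06).

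Gbp5 and Gbp7 lie on the same strand of the chromosome 3 cluster and moved in opposite directions. The ratio of their CPM within a library was 0.594, 0.570 and 0.515 in controls and 6.83, 4.78 and 7.55 with TMAO. That the groups do not overlap in this ratio follows from the separate ranges of both genes given above. Transcript length is not taken out of this ratio, so it compares libraries and not the levels of these genes. Summed over the cluster's Gbp2, Gbp3, Gbp5 and Gbp7, the mean was 127 ± 20.3 CPM in controls and 130.4 ± 7.35 CPM with TMAO (SD, n = 3). The sum's log2 fold change was 0.04 (SE 0.12, edgeR adjusted p = 0.803).

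The GBPs of chromosome 5 split as well. Gbp9 (ENSMUSG00000029298), less well characterised than Gbp2 and Gbp5, changed by the largest fold of the 10 members. It measured 39.8, 31.9 and 34.3 CPM in controls and 3.78, 2.42 and 3.91 CPM with TMAO. All TMAO libraries lay far below all controls. The mean went from 35.3 ± 4.03 to 3.37 ± 0.826 CPM (SD, n = 3), 10.4-fold lower, with a log2 fold change of -3.38 (SE 0.18, edgeR adjusted p = 1.69e-07). Only 0.472% of the genes tested had a lower log2 fold change.

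Gbp8 (ENSMUSG00000034438), another GBP of chromosome 5, was low and rose. Its libraries held 65, 68 and 38 counts in controls and 94, 121 and 84 counts with TMAO, which is 1.67, 1.64 and 0.921 CPM and 2.37, 3.33 and 2.19 CPM. The groups did not overlap, but control library 3 lay well below the other controls and TMAO library 2 above the other TMAO libraries. The log2 fold change was 0.90 (SE 0.28, edgeR adjusted p = 0.0175), and the call was lost without control library 3 (edgeR adjusted p = 0.0577), without TMAO library 2 (0.0671) and in an edgeR test against a fold of 1.5 (0.134).

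Gbp4 (ENSMUSG00000079363), the lowest member in CPM with TMAO, held 75, 60 and 59 counts in controls and 47, 42 and 46 with TMAO. That is 1.93, 1.45 and 1.43 CPM against 1.19, 1.16 and 1.20 CPM, with no overlap between the groups. The log2 fold change was -0.44 (SE 0.25, edgeR adjusted p = 0.142), so the difference did not pass the test.

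Sequence likeness limits the chromosome 5 values. Over aligned coding bases Gbp4 was 92.9% identical to Gbp8 and 90.2% identical to Gbp9, and Gbp8 was 90.5% identical to Gbp9. Annotated exons of Gbp4, Gbp8 and Gbp9 overlap by 60 or 61 bases in each gene. How the counting treated reads that match several of these genes is not given in the sources used here, so the split of reads among them is uncertain. Summed over Gbp4, Gbp6, Gbp8, Gbp9, Gbp10 and Gbp11, the cluster went from 43.4 ± 5.93 to 9.30 ± 0.217 CPM (SD, n = 3) with a log2 fold change of -2.22 (SE 0.12, edgeR adjusted p = 1.77e-07). That sum is mostly Gbp9 in the controls. Of their 100-base windows, 1.64% in Gbp4, 4.39% in Gbp8 and 1.65% in Gbp9 were found in another gene. On chromosome 3 the share was 0.694% for Gbp3 and 0.142% for Gbp5, and for Gbp7 it was above that of the chromosome 5 genes, with 9.59% found in the gene model Gm43802 alone.

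Irgm1 (ENSMUSG00000046879), a regulator needed in macrophages for resistance to intracellular bacteria and for handling of mitochondria and autophagy, was the most abundant member in the controls and fell. It measured 166, 139 and 129 CPM in controls and 48.3, 39.4 and 44.6 CPM with TMAO. All TMAO libraries lay below all controls. The mean went from 145 ± 19.3 to 44.1 ± 4.47 CPM (SD, n = 3), 3.28-fold lower, with a log2 fold change of -1.71 (SE 0.12, edgeR adjusted p = 9.59e-07).

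Irgm2 (ENSMUSG00000069874), known to restrain non-canonical inflammasome activation, fell as well. Its values were 90.9, 73.6 and 70.6 CPM in controls and 24.1, 18.5 and 20.0 CPM with TMAO, with no overlap. The log2 fold change was -1.91 (SE 0.13, edgeR adjusted p = 1.02e-06), or 3.75-fold lower.

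Igtp (ENSMUSG00000078853), found on the endoplasmic reticulum and lipid droplets, fell by the smallest fold of the 3. It measured 38.4, 29.0 and 28.7 CPM in controls and 16.1, 21.8 and 19.1 CPM with TMAO. The groups did not overlap, and TMAO library 2 lay nearest to the controls. The log2 fold change was -0.75 (SE 0.15, edgeR adjusted p = 0.00113), or 1.69-fold lower. In the edgeR test against a fold of 1.5 the call was lost (adjusted p = 0.116). Annotated exons of Igtp and Irgm2 share 162 bases, and 5.16% of the 100-base windows of Igtp were found in Irgm2.

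**Figure D2:**
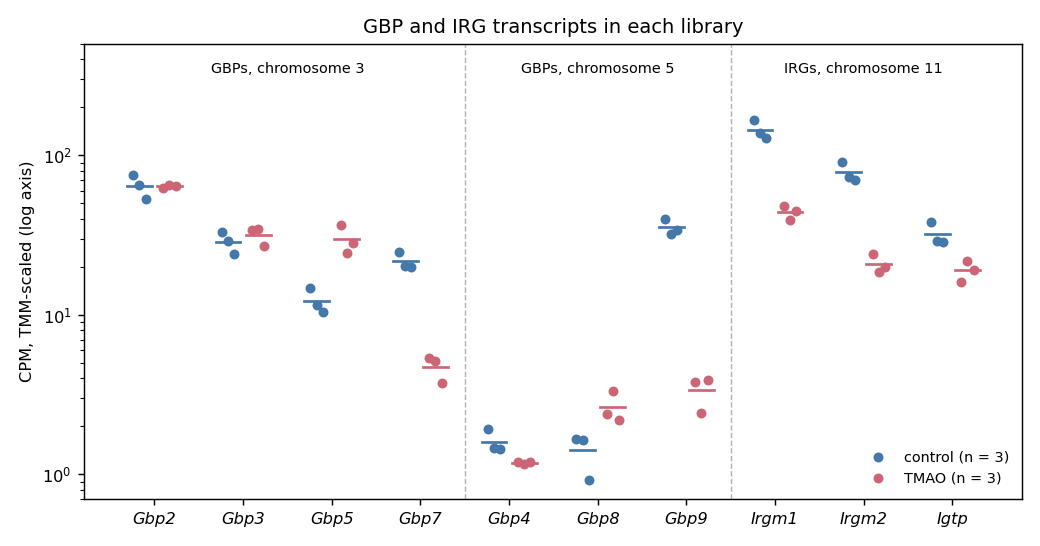
CPM of each member in each library on a log axis (points, 3 control and 3 TMAO libraries; bars, group means), grouped by chromosome. Gbp5 and Gbp8 lie higher with TMAO, Gbp7, Gbp9 and the 3 IRGs lie lower, and Gbp2 and Gbp3 overlap.

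In the controls, library 1 was the highest library for 10 of 10 members and library 3 the lowest for 9 of 10, whereas over all genes tested these libraries were the highest for 24.9% and the lowest for 35.4%. The type I interferon genes listed further on shared this in part, with control library 1 the highest for 6 of 9. The coefficient of variation over controls was 11.4% (Gbp9) to 30.2% (Gbp8) for the members, beside a median of 8.42% over the 11957 genes whose mean CPM was 1 or more. Leaving out either library turned the direction of no called member, and Gbp8 is the one call that it ended.

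Levels can be compared between genes only per length, here as CPM per kb of the longest protein-coding transcript. That length was 2.259 kb for Irgm1 and 3.055 kb for Gbp5, whose annotated exons cover 5810 and 6637 bases. The orders and shares below rest on this choice of length. In the controls the order was Irgm1 with 64.0 ± 8.52 CPM per kb, then Gbp2 with 25.7 ± 4.44, Irgm2 with 22.2 ± 3.10, Igtp with 15.9 ± 2.73, Gbp3 with 10.7 ± 1.69 and Gbp9 with 8.06 ± 0.921 (SD, n = 3). Gbp5 and Gbp7 followed with 3.99 ± 0.752 and 3.86 ± 0.491 CPM per kb, and Gbp8 and Gbp4 with 0.574 ± 0.173 and 0.353 ± 0.0624. Ranges of mean ± SD overlapped for Gbp2 and Irgm2, for Gbp5 and Gbp7, and for Gbp8 and Gbp4. These ranges do not pair genes within a library. Of the summed CPM per kb of the GBPs, Gbp8 held 1.10%, 1.28% and 0.821% in controls 1, 2 and 3. Gbp4 held less in each, with 0.688%, 0.610% and 0.691%.

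With TMAO the order was different. Gbp2 stood first with 25.5 ± 0.531 CPM per kb, ahead of Irgm1 with 19.5 ± 1.98. Gbp3 with 11.9 ± 1.53, Gbp5 with 9.73 ± 2.02 and Igtp with 9.41 ± 1.42 came next, with ranges of mean ± SD that overlapped each other. Irgm2 followed with 5.91 ± 0.825 CPM per kb. Gbp8 with 1.07 ± 0.249, Gbp7 with 0.843 ± 0.156 and Gbp9 with 0.770 ± 0.189 lay within their spread of each other, above Gbp4 with 0.260 ± 0.00496 (SD, n = 3).

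Within each family the shares shifted. Of the CPM per kb of the 7 GBPs, Gbp5 made up 7.47% ± 0.325 in controls and 19.4% ± 3.36 with TMAO (SD, n = 3). Gbp9 went the other way, from 15.3% ± 1.69 to 1.54% ± 0.391, and Gbp7 from 7.29% ± 0.509 to 1.68% ± 0.249. Gbp2 stayed near the same share, with 48.2% ± 1.61 and 51.0% ± 3.31. Among the 3 IRGs the share of Igtp, which fell least, went from 15.5% ± 0.611 to 27.2% ± 5.12, and that of Irgm1 from 62.7% ± 0.741 to 55.9% ± 3.55.

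**Figure D3:**
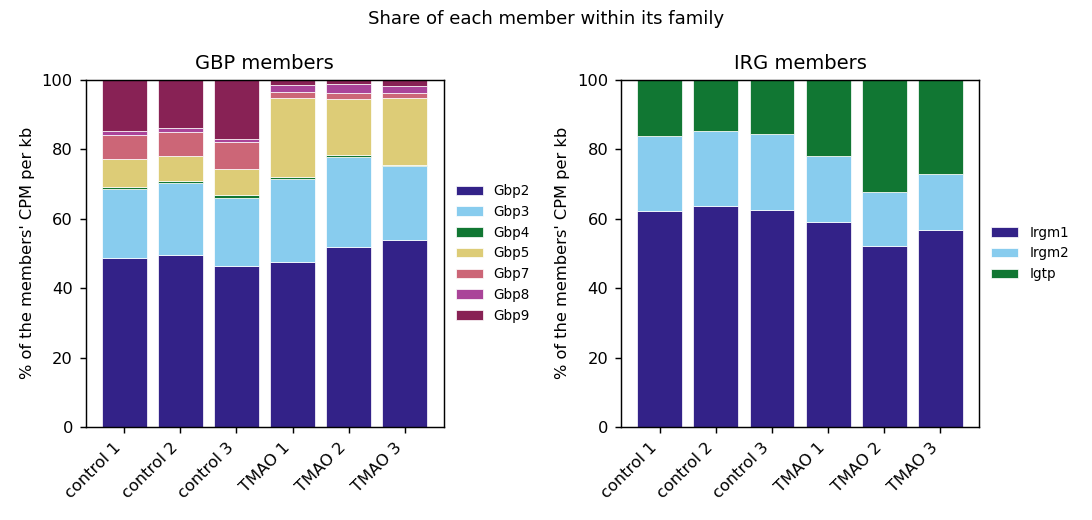
Share of each member in the summed CPM per kb of its family (y axis, percent) in each of the 6 libraries, for 7 GBPs (left) and 3 IRGs (right). Gbp9 and Gbp7 take up less and Gbp5 more of the GBP total with TMAO, and Igtp more of the IRG total.

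GBPs were then set against IRGs. The summed level of the 7 GBPs was 144 to 192 CPM in controls and 131 to 146 CPM with TMAO, while that of the 3 IRGs was 228 to 295 CPM and 79.7 to 88.5 CPM. GBPs held 39.4%, 40.0% and 38.7% of the summed CPM of all members in controls and 62.2%, 63.1% and 61.0% with TMAO. These sums and shares are not divided by transcript length, so they show the change between groups and not which family was the more abundant. The mean log2 CPM of the GBPs minus that of the IRGs was -2.54 ± 0.07 in controls and -1.61 ± 0.07 with TMAO (SD, n = 3), a change of 0.93. That change turned to -0.35 when the median over members replaced the mean, so its direction depends on the choice between them. No p is given, since the members were chosen with results of these data known.

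The rest of both families was examined from lists of the other mouse genes. Gbp6, a GBP of chromosome 5, fell from 4.94 ± 1.68 to 1.89 ± 0.221 CPM (SD, n = 3), with a log2 fold change of -1.38 (SE 0.26, edgeR adjusted p = 0.000776). Gbp10 (6 and 1 counts over the 3 libraries of each group) and Gbp11 (7 and 24 counts) did not pass the filter on low counts, and no row matched the symbol Gbp2b.

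Of 14 other IRG genes 10 were tested: 8 were called lower and 1 higher, beside 32.7% and 33% of all genes tested. Of the effector genes whose proteins load onto vacuoles, Gm12250, Ifi47 and Iigp1 were among the lower ones and Tgtp2 was not. Gm12250, which encodes Irgb10, went from 19.6 ± 4.35 to 5.77 ± 0.187 CPM, with a log2 fold change of -1.76. Ifi47, which encodes Irgd, went from 47.8 ± 10.4 to 22.1 ± 4.72 CPM (log2 fold change -1.11), and Iigp1, which encodes Irga6, from 1.80 ± 0.706 to 0.826 ± 0.143 CPM (log2 fold change -1.12; all SD, n = 3). Tgtp2, which encodes Irgb6, measured 4.42 ± 1.33 and 3.67 ± 0.555 CPM and was not called (log2 fold change -0.27, edgeR adjusted p = 0.321). Whether reads were shared between Tgtp2 and the IRG gene Tgtp1 was not tested.

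Some less studied IRG loci changed by a larger fold than any of the 10 members. Gm5431 measured 72.3, 59.3 and 62.1 CPM in controls and 4.59, 2.97 and 2.19 CPM with TMAO. It was 19.8-fold lower with a log2 fold change of -4.31 (SE 0.22, edgeR adjusted p = 1.32e-07). The neighbouring gene models 9930111J21Rik2 and 9930111J21Rik1 were 20.9-fold and 22.2-fold lower, and whether reads were shared between them was not tested. Gm4951 was 19.5-fold lower on 193 counts over the controls and 9 with TMAO, and Gm12185 was 5.79-fold lower. Irgq, an IRG-like gene that lacks a working GTPase site, was the one called higher, from 19.1 ± 1.39 to 31.4 ± 3.24 CPM (SD, n = 3; log2 fold change 0.72, edgeR adjusted p = 0.000234).

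Not every other IRG gene was searched for motifs: Iigp1, Gm4951, Gm4841, F830016B08Rik and Irgc1 were not among those searched. Of those searched, Gm12250, Gm12185, Tgtp1 and Tgtp2 held both an ISRE core and a GAS in the 250 bases before the RefSeq start. In Gm12185, Tgtp1 and Tgtp2 the GAS stood 2 bases ahead of the ISRE core as in Irgm2 and Igtp. No match was found in the window of Gm5431, 9930111J21Rik1, 9930111J21Rik2, Ifi47 or Irgq. Tgtp1 (27 and 18 counts over the groups), Irgc1 (10 and 12), Gm4841 (8 and 0) and F830016B08Rik (27 and 0) were too low to be tested.

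**Figure D4:**
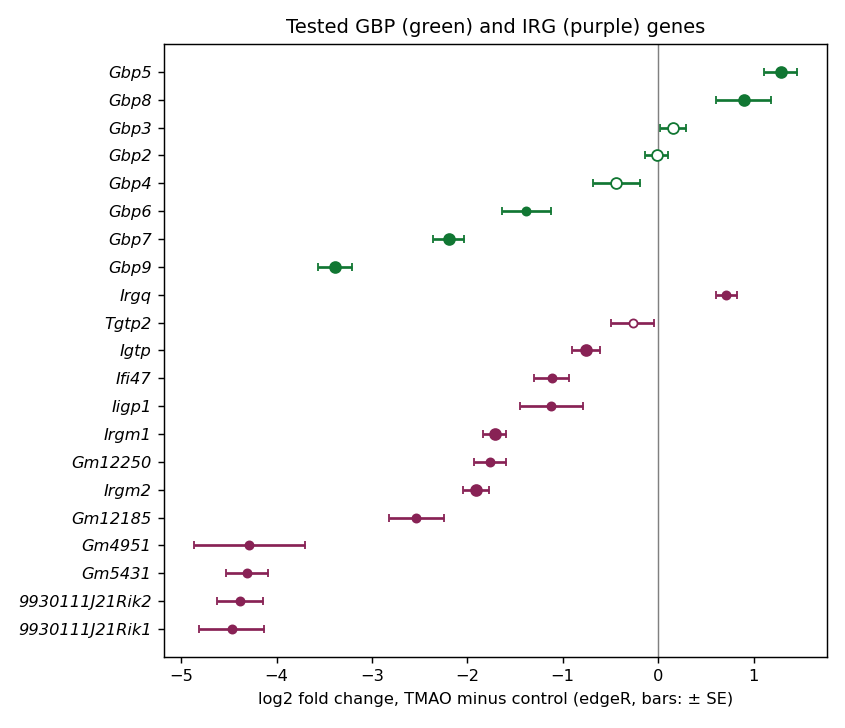
Log2 fold change, TMAO minus control, with SE (x axis), of the 21 tested GBP (green) and IRG (purple) genes; large points are members, and open points did not pass the edgeR test. GBPs lie on both sides of 0, and Irgq is the one IRG to the right of it.

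The interferon pathway upstream of the members was described from the ligands to the targets. Transcripts of the ligands were scarce. Ifng, encoding interferon-gamma, had 0 counts over the controls and 1 over the TMAO libraries. Ifnb1, encoding interferon-beta, had 4, 0 and 2 counts in controls and 6, 7 and 8 with TMAO, and Ifnk 2 and 3 counts over the groups. None of the 3 passed the filter on low counts, and 8 further interferon symbols of the list matched no row.

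Of the 9 genes of interferon-gamma signalling reported here 5 were called higher and 3 lower, beside 33% and 32.7% of all genes tested. The median log2 fold change was 0.40 over these 9 and 0.01 over all genes tested. The receptor chain Ifngr1 fell with a log2 fold change of -0.62 (SE 0.08), while Ifngr2 was not called (log2 fold change -0.08, edgeR adjusted p = 0.375). Of the receptor kinases, Jak1 fell (log2 fold change -0.74) and Jak2 rose (0.40).

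Irf1, an interferon-induced factor that itself drives Gbp genes, rose. It measured 62.0, 58.8 and 50.9 CPM in controls and 118, 112 and 127 CPM with TMAO, all TMAO libraries above all controls, with a log2 fold change of 1.06 (SE 0.10, edgeR adjusted p = 7.91e-06). Irf8, a factor of the myeloid lineage that also acts on ISRE-like sites, rose from 149.7 ± 1.14 to 199 ± 5.71 CPM (SD, n = 3; log2 fold change 0.41). Of the feedback inhibitors, Socs1 and the phosphatase Ptpn2 rose (log2 fold changes 0.88 and 1.43), and Pias1 fell (-0.43).

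Type I interferon signalling genes moved mostly 1 way: 8 of 9 were called lower and 1 higher, beside 32.7% and 33% of all genes tested. Their median log2 fold change was -0.55. Irf7, which amplifies type I responses, fell most in this list. It measured 391, 324 and 239.6 CPM in controls and 45.7, 43.9 and 45.5 CPM with TMAO (log2 fold change -2.82, SE 0.16, edgeR adjusted p = 2.53e-07). The controls of Irf7 differed widely among themselves, and all of them lay above the TMAO libraries. Stat2 and Irf9, subunits of a complex that binds ISRE, fell with log2 fold changes of -1.47 and -0.42. The receptor genes Ifnar1 and Ifnar2 fell (-0.74 and -0.27), as did Tyk2 (-0.55), Irf2 (-0.55) and the feedback gene Usp18 (-1.10), and Irf3 rose (0.74).

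**Figure D5:**
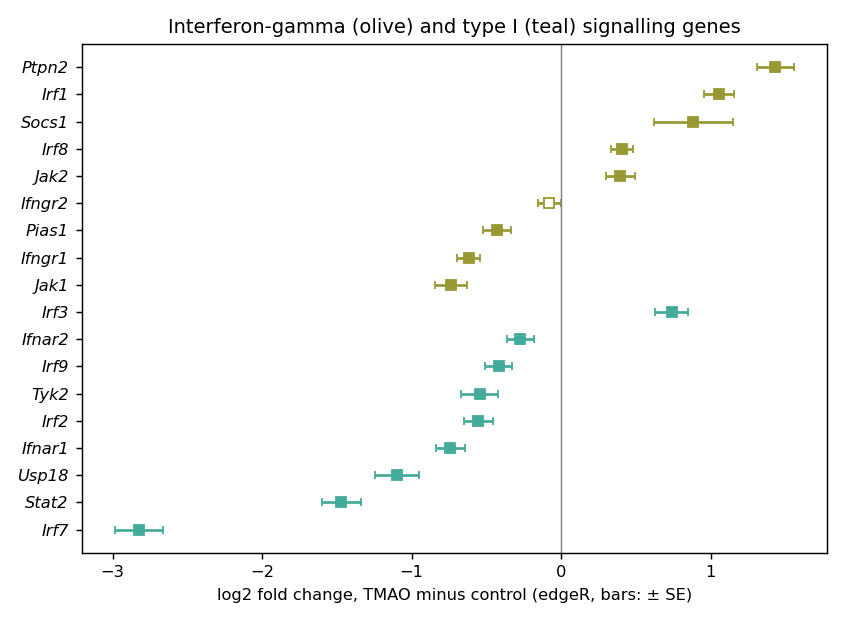
Log2 fold change, TMAO minus control, with SE (x axis), of 9 interferon-gamma (olive) and 9 type I interferon (teal) signalling genes; the open point did not pass the edgeR test. Irf1 lies to the right of 0, and Irf7 lies farthest to the left.

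Of 14 other interferon-gamma target genes tested, 6 were called higher, beside 33% of all genes tested, and 5 lower, beside 32.7% (median log2 fold change 0.16). Those with the smallest p were Fcgr1, a high-affinity Fc receptor (log2 fold change -2.07), Socs3 (1.71), the chemokine Cxcl10 (2.75) and the nitric oxide synthase Nos2 (2.71). The proteasome subunit Psmb10 and the peptide transporter Tap2 were the most abundant that did not pass the test (-0.15 and -0.18). Socs3, Cxcl10 and Nos2 also respond to signals other than interferon.

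The machinery with which GBPs and IRGs act was listed in 4 groups. Of 10 genes of the ATG8 conjugation system, which places both families on vacuoles, 6 were called higher and 1 lower (median log2 fold change 0.31). Over all genes tested these shares were 33% and 32.7%. The ATG8 genes Map1lc3b (0.92), Gabarapl1 (0.72), Map1lc3a (1.04) and Gabarap (0.82) rose. Short transcripts ran higher over all genes, with a median of 0.50 up to 1.399 kb and 0.28 at 1.4 to 2.304 kb. Map1lc3a (1.112 kb) and Gabarap (1.351 kb) are in the first group, Gabarapl1 (1.82 kb) in the second and Map1lc3b (2.633 kb) in neither. Atg3 (0.22) and Atg5 (-0.11), which act in the conjugation, did not pass the test. Atg7, which activates ATG8 proteins, was the gene called lower (-0.48), named here after its values were seen.

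Of 12 ubiquitin ligases, galectins and adaptors found at coated vacuoles 3 were called higher and 5 lower, beside 33% and 32.7% of all genes tested. Their median log2 fold change was -0.13. Sqstm1, the adaptor p62, rose from 895 ± 52.0 to 5063 ± 104 CPM (SD, n = 3; log2 fold change 2.50). Rnf213 (-2.27), Trim21 (-1.42) and Lgals8 (-0.94) fell, and Tax1bp1 (0.19) and Rbck1 (-0.18) did not pass the test. Rnf213 is a ubiquitin ligase of bacterial surfaces, Trim21 an antibody receptor with ligase activity, and Lgals8 a galectin that marks broken vacuoles.

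Of 6 enzymes of prenylation, which anchors Gbp2 and Gbp5 in membranes, 2 were called higher and 2 lower (median log2 fold change 0.10). That is near the shares over all genes tested, 33% and 32.7%. The protease Rce1 (1.13) and the farnesyltransferase subunit Fntb (0.47) rose, and the protease Zmpste24 (-0.60) and the methyltransferase Icmt (-0.33) fell. The shared subunit Fnta (0.19) and Pggt1b (0.01), needed for geranylgeranylation, did not pass the test.

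Of 9 inflammasome genes that act with GBPs and Irgb10, 3 were called higher and 2 lower, beside 33% and 32.7% of all genes tested. Their median log2 fold change was 0.01. Il1b (5.85) and Nlrp3 (2.78) rose, as did Casp4, the sensor of cytosolic lipopolysaccharide that GBPs help to activate, which went from 49.9 ± 4.17 to 93.9 ± 9.03 CPM (SD, n = 3; log2 fold change 0.91). Casp1 fell (-0.45). Gsdmd, the pore protein, and Aim2, a DNA sensor, did not pass the test (-0.19 and -0.04).

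Fold changes over all genes ran with transcript length. With genes put in 5 equal groups by length, the median was 0.50 (log2) among the shortest and -0.57 among the longest. The values given for the gene lists still carry this trend. With that trend removed the log2 fold changes were 1.32 for Gbp5, -1.72 for Gbp7, 0.81 for Gbp8, -3.08 for Gbp9, -1.84 for Irgm1, -1.77 for Irgm2 and -0.96 for Igtp, and all 7 calls were kept.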

How the data were processed

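RNA-seq libraries (poly(A)-selected, random-primed, paired-end) of primary myeloid cells were compared, 3 control and 3 TMAO. The authors deposited whole-number raw counts per Ensembl gene without normalization, and the submitters' processing notes name the build GRCm39. With the aligner, counter, strand setting and annotation not given in the sources used here, antisense and overlapping genes cannot be told apart. The labels name sequencers of 2 makers without tying them to libraries, so a platform difference between the groups cannot be told apart from the treatment. Groups come from the sample titles, and columns were matched by the sample descriptions.

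Of 25751 gene IDs 25386 were given symbols from GENCODE M21 (GRCm38), used also for transcript length and GC content, and 365 had none. The counts were fitted in edgeR 4.0.16 (R 4.3.3): filterByExpr with a minimum count of 10 kept 14626 genes, libraries were scaled by TMM, and TMAO was tested against control by the quasi-likelihood F test, with Benjamini-Hochberg adjustment over all genes tested and a threshold of 0.05. CPM carries the same TMM scaling, errors are SD over 3 libraries, SE is the log2 fold change over the square root of F, and mean log2 CPM uses a prior count of 2. The fit was tested on simulated data. Copies were sought as shared windows of 100 bases, and motifs with a script over RefSeq starts.

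Genes with 2 counts were about 3 times as many as genes with 1 in every library (1925 to 2116 against 609 to 704), as where both mates of a pair are counted. With counts halved no member's call changed. The labels do not say that equal replicate numbers pair the samples. Deviations of libraries with the same number correlated at 0.03, 0.13 and -0.07, and those of other pairs at -0.19 to 0.16. With 3 libraries in a group these values show no pairing but cannot exclude it.

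Members and 18 gene lists were chosen with earlier results of these data known. A listed gene of interferon-gamma signalling is not reported here and is left out of that list's count and median. Named are all members, the measured genes of both families, of the interferons and of the signalling lists, and of each other list up to 4 called genes with the smallest p and up to 2 uncalled genes with the highest CPM. Alternatives were DESeq2 1.42.0, limma-voom (limma 3.58.1), other scalings and filters, length and GC trends removed, a replicate block, leaving out each library, testing against a fold of 1.5, cluster sums and, added after seeing the data, counts halved.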

Additional observations from a re-analysis of the deposited data

How the results depend on the processing

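Across 18 alternatives the calls of Gbp5, Gbp7, Gbp9, Irgm1 and Irgm2 kept direction and side of the threshold, with log2 fold changes of 1.11 to 1.44, -2.30 to -1.72, -3.50 to -3.08, -1.84 to -1.56 and -2.03 to -1.77. Igtp lost its call in the test against a fold of 1.5 (edgeR adjusted p = 0.116), and its log2 fold change ran from -0.96 to -0.61. Gbp8 lost its call in 3, where members called higher numbered 1 and not 2: without control library 3, without TMAO library 2 and against a fold of 1.5. The last setting called 5184 genes and not 9608. Gbp2, never called, changed sign under limma-voom (0.0019), upper quartile scaling (0.0175), GC trend removed (0.10), without control library 1 (0.10) and without TMAO library 1 (0.0015); leaving out a library gave -0.14 to 0.10. With the replicate number as a block, Gbp2 was at 0.00042 and 9723 genes were called. The numbers are not stated to pair the samples, and no member's call changed. Summing each GBP cluster gave 0.0353 for Gbp2 and Gbp7 and -2.22 for Gbp8, a change of sign for each, since the sum replaces the gene; Gbp5 lost and Gbp4 gained a call that way. The GBP minus IRG change of 0.93 became -0.35 with the median over members, and leaving out a library gave 0.89 to 0.97. Leaving out a library gave 8629 to 9931 genes called and 1 to 2 members higher. With counts halved, chosen after seeing the data, 9280 of 13266 genes were called. Depth limits Gbp4 and Gbp8, at 38 to 121 counts a library, and the interferon genes.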

Other observations

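Other large GTPases were listed beside GBPs and IRGs. Of 12 tested, 6 were called lower with TMAO and 1 higher, beside 32.7% and 33% of all genes tested. Their median log2 fold change was -0.59, beside 0.01 over all genes. Long transcripts ran lower over all genes, with a median of -0.21 at 3.314 to 4.747 kb and -0.57 above that. Atl3 (7.54 kb), Gvin1 (9.005 kb) and Opa1 (6.23 kb), described next, are in that longest group. The length trend was not taken out of the values of this list. Atl3, an atlastin that shapes the endoplasmic reticulum and belongs to the same superfamily as the GBPs, fell from 167 ± 16.6 to 68.1 ± 4.70 CPM (SD, n = 3), with a log2 fold change of -1.29 (edgeR adjusted p = 2.02e-06). Gvin1, a very large interferon-inducible GTPase, fell with a log2 fold change of -2.80 (edgeR adjusted p = 2.35e-05). The mitochondrial fusion GTPase Opa1 fell with a log2 fold change of -0.87 (edgeR adjusted p = 5.75e-05). The Mx genes, antiviral and interferon-inducible, differed in direction: Mx1 fell (-0.96, edgeR adjusted p = 0.000163), and Mx2, named here after its values were seen, rose (0.40, edgeR adjusted p = 0.0155). Dnm2 and Dnm1l, dynamins of endocytosis and mitochondrial fission, measured 174 ± 5.52 and 71.0 ± 5.56 CPM in controls and 147 ± 20.1 and 60.7 ± 8.11 CPM with TMAO, and did not pass the test (edgeR adjusted p = 0.0654 and 0.103).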
